A study of Mus musculus with 12 samples.

Results

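Genes of the trophectoderm program were followed through the knockdown of Nr5a2 and Klf5 in 8-cell mouse embryos. The 10 genes, of 55401 in the count files, were taken as a fixed list of names: the regulators Cdx2, Gata2, Gata3, Eomes, Tfap2a, Tfap2c, Id2 and Hand1 and the keratins Krt8 and Krt18. This list was chosen with earlier results of these data known, so its counts beside those of all genes are a description. RNA-seq was made from 12 libraries, each from a pool of 10 embryos. Embryos came from B6129F1 females, 3 to 5 weeks old, mated with B6CBAF1 males. Zygotes were injected at 8 to 9 hours post fertilisation (hpf) with siRNA, together with 150 ng/µl H2B-EGFP, in the controls as well as in the knockdowns. The groups were control siRNA at 15 µM (control, n = 2), Nr5a2 siRNA at 5 µM (Nr5a2 KD, n = 3), Klf5 siRNA at 10 µM (Klf5 KD, n = 3) and both siRNAs (dKD, n = 4). The separate concentrations in the dKD are not given in the sources used here. Each replicate is a library of its own in the labels, so the spread and the p-values describe these pools of embryos and may be partly technical.

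The trophectoderm is the first epithelium of the mouse embryo, formed by the outer cells, and it gives rise to the placenta. In outer cells the nuclear cofactor YAP acts with TEAD4 to switch on Cdx2 and Gata3, and AP-2 factors, encoded by the Tfap2 genes, act in the same lineage. Keratins 8 and 18 pair into the first intermediate filaments of the embryo, and Hand1, Eomes and Id2 act in the later trophoblast lineage.

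In Nr5a2 KD these genes moved in opposite directions. Calls needed an adjusted p under 0.05 over all genes tested (edgeR's quasi-likelihood test, Benjamini-Hochberg) and a difference of 2-fold or more. Of the 6 members with enough counts to test, Krt8, Krt18 and Id2 were called higher and Hand1 lower, where 3.45% of all genes tested were called higher and 4.42% lower. Krt18 and Id2 had 3 counts each in control replicate 1 and had enough counts only through Nr5a2 KD, so this count of calls is a description only. Relative to control, the fitted level was 4.63-fold for Krt8, 6.4-fold for Krt18, 18.8-fold for Id2 and 0.151-fold for Hand1. The folds of Krt18 and Id2 depended on which control library was kept. The sum over the 10 genes hid this: it was 115 and 123 in control, in counts scaled to library size (CPM), and 88.8 to 92.5 in Nr5a2 KD, a lower sum although 3 of its genes rose. In Klf5 KD none of the 6 members tested was called by edgeR, as for all genes (0% higher and 0% lower). The smallest edgeR adjusted p over all genes was 0.0996 there. Klf5 itself, at 24.5% of the control mean, was thus not called either, so a lack of calls does not show a lack of change. In dKD 7 were tested, of which Id2 rose and Hand1 fell, where 3.38% of all genes were higher and 3.85% lower. The genes that define the trophectoderm in later embryos, Cdx2, Gata2, Eomes and Tfap2a, had few reads in every group.

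**Figure D1:**
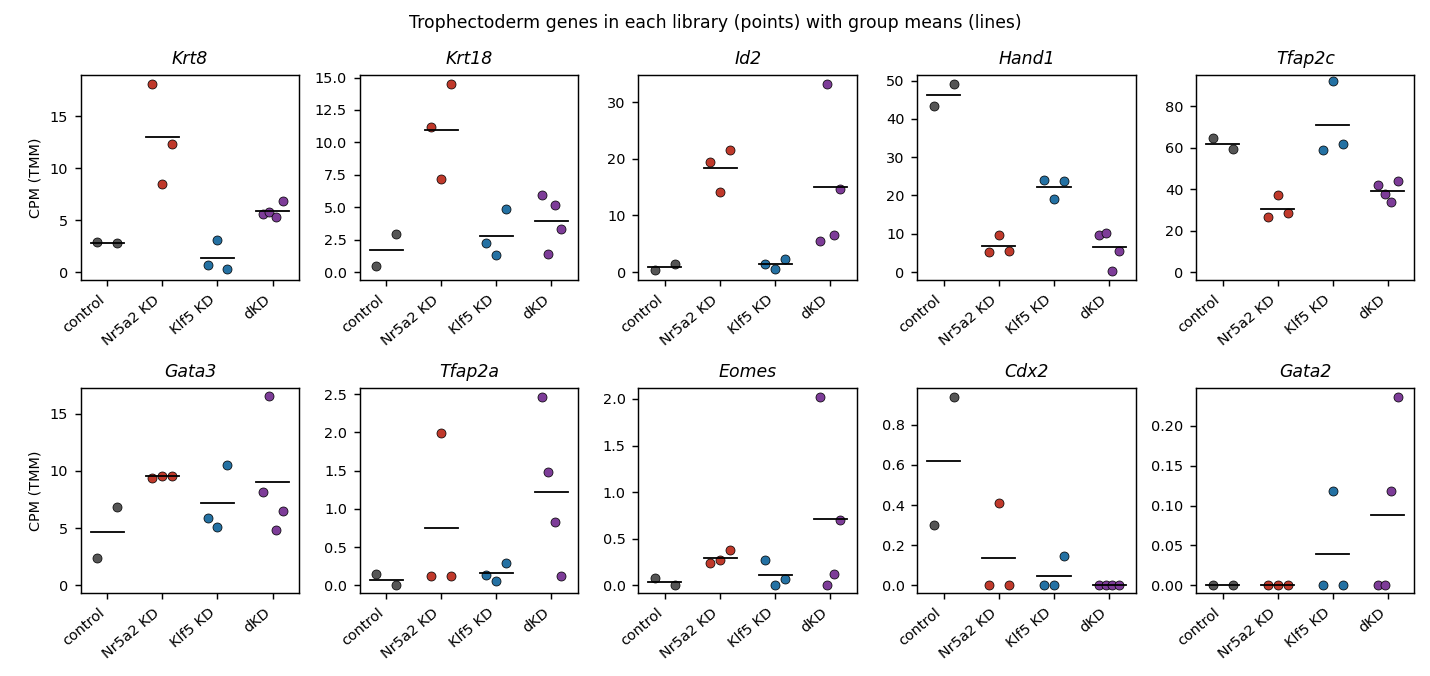
Level of each of the 10 genes in CPM (vertical axes start at 0 and differ between panels), with 1 point per library and a line at the group mean. Krt8, Krt18 and Id2 lie above both controls in all 3 Nr5a2 KD libraries, Hand1 lies below, and the Cdx2 level is 0 in all 4 dKD libraries.

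The libraries held 6676683 to 12560926 counts on genes. Nr5a2 mRNA, as a percent of the control mean, was at 14.7% in Nr5a2 KD and 13.7% in dKD, and Klf5 mRNA at 24.5% in Klf5 KD and 12.3% in dKD. Klf5 was also at 30.6% in Nr5a2 KD, so those libraries were low in both mRNAs. The 8 cleavage-stage markers, among them Pou5f1 and Dppa3, had counts in every group. Their summed level was 16580 and 20170 CPM in control, 24050 to 32590 CPM in Nr5a2 KD, 18830 to 22550 CPM in Klf5 KD and 22590 to 26050 CPM in dKD, so it lay above both controls in every library with Nr5a2 siRNA. Most of it was Dppa3, at 14410 and 17140 CPM in control and 19760 to 29460 CPM in those libraries, and its part in the results was not tested. Gene by gene, most of the 8 went the other way. The log2 fold change against control was negative for 5 in Nr5a2 KD (median of the 8 -0.37) and for 6 in dKD (median -0.44). The summed level of 8 cumulus and granulosa markers was 12.9 and 17.1 CPM in the controls. Across knockdowns it spanned 10.9 to 12.2 (Nr5a2), 16.6 to 21.1 (Klf5) and 8.95 to 17.6 (double). Of the 8, 3 were at 0 in control, Inha among them, 6 in Nr5a2 KD, 3 in Klf5 KD and 5 in dKD. Amhr2 made up most of these sums, at 8.24 to 20.3 CPM over the 12 libraries. The 6 markers of placental trophoblast summed to at most 4.54 CPM in any library, with Prl3d1 and Tpbpa at 0 throughout. Genes encoded on the mitochondrial genome took 13.2 and 12.9% of the counts in control, but 6.18% in Nr5a2 KD replicate 3, 4.41% in Klf5 KD replicate 1, and 6.75 and 6.17% in dKD replicates 3 and 4. In pooled embryos, fewer cells that express a gene and less RNA per cell cannot be told apart.

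Krt8, Krt18 and Id2 rose together in Nr5a2 KD, and the DNA before their start sites is shown for that reason. They come from RefSeq (GRCm38.p6), which held windows for 8 of the 10 members (not for Hand1 or Tfap2c), 10 windows in all, and each is printed 5′ to 3′ on the strand of its gene, without the part that the count files hold as exon. Krt8 (chr15:102004483-102004592, minus strand) and Krt18 (chr15:102027966-102028179, plus strand) lie just upstream of their genes. The stretch of Id2 (chr12:25096254-25096342, minus strand) lies inside the span of the gene, between 2 annotated exons. Capitals mark matches to CCACCC, the CACCC form of the box that KLF factors bind (GGGTGG on the other strand), to AGATAA, bound by GATA factors, and to GCCNNNGGC, bound by AP-2 factors.
Krt8: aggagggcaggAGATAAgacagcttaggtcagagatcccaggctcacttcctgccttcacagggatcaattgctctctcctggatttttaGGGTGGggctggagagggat
Krt18: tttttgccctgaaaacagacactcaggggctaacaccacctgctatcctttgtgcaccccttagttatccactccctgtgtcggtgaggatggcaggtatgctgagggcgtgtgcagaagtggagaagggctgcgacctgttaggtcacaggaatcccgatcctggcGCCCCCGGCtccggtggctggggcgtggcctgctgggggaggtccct
Id2: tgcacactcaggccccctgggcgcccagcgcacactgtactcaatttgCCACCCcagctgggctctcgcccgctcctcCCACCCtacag

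Motifs were searched on both strands in the 250 bases before each start. The recognition sequence of NR5A factors was not found as CAAGGTCA, which 1.33% of 32851 RefSeq windows hold, nor as CAAGGCCA, which 1.99% hold, in any of the 10 windows of the members. The KLF box CCACCC was in the windows of Cdx2, Gata3, Id2 and Krt8, and in 28.1% of all windows. Its GC form, GGGCGGG, was in those of Gata3 and Id2, and in 23.4% of all. The GATA site was in that of Krt8 alone among the 8 members with a window (9.99% of all windows), the TEAD site GGAATG in that of Gata2 (12.6% of all), and the AP-2 site in those of Cdx2, Gata2, Gata3 and Krt18 (13.7% of all). The windows of Cdx2, Gata2 and Gata3 are not printed, and the GC form in Id2 and a second CCACCC in Krt8 lie in the exon part left out above. A match is only a run of letters, and none was tested for binding.

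Krt8 and Krt18 encode the type II and type I keratins that pair into one filament, and they are neighbours on chromosome 15 of GRCm38 (Krt8 from 101996698 to 102004482 and Krt18 from 102028180 to 102032027). Krt8 was at 2.87 and 2.81 CPM in control, 18.1, 8.52 and 12.3 CPM in Nr5a2 KD, 0.718, 3.06 and 0.293 CPM in Klf5 KD and 5.55, 5.80, 5.30 and 6.89 CPM in dKD. All libraries of Nr5a2 KD and dKD lay above both controls, and the Nr5a2 KD libraries lay above all of dKD, while Klf5 KD overlapped control.

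In Nr5a2 KD, Krt8 rose with a log2 fold change of 2.21 against control (standard error 0.439, edgeR adjusted p = 0.01). Against Klf5 KD, the level in Nr5a2 KD was higher too: the log2 fold change of Klf5 KD against Nr5a2 KD was -3.25 (standard error 0.62, edgeR adjusted p = 0.00422). In dKD the difference from control was 1.08 (standard error 0.406, edgeR adjusted p = 0.123), which did not pass. It was called there with libraries scaled to the ERCC spike-in counts (1.89, edgeR adjusted p = 0.0259), where the median of all genes was 0.84. From Nr5a2 KD to dKD it was -1.14 (standard error 0.311, edgeR unadjusted p = 0.00314, adjusted p = 0.999), where no gene passed. The call against control rested on both control libraries: without control replicate 1 the log2 fold change was 2.21 with an adjusted p of 0.0839 (edgeR), and without control replicate 2 it was 2.20 with 0.0857. Some exon bases of Krt8 are shared with Gm36026, and the counting kept no strand. The processed copy Krt8-ps had 1 count in 1 library and 0 in the other 11.

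Krt18 was at 0.454 and 2.95 CPM in control, 11.2, 7.15 and 14.5 CPM in Nr5a2 KD, 2.24, 1.30 and 4.83 CPM in Klf5 KD and 5.93, 1.42, 5.18 and 3.30 CPM in dKD. All 3 Nr5a2 KD libraries lay above every other library, and the controls, which held 3 and 22 counts, overlapped Klf5 KD and dKD. Nr5a2 KD was higher than control by 2.68 on the log2 scale (standard error 0.635, edgeR adjusted p = 0.0221). In dKD it was 1.24 (standard error 0.761, edgeR adjusted p = 0.347), at 0.47 without control replicate 1 and 3.13 without control replicate 2. Between Nr5a2 KD and dKD it was -1.46 (standard error 0.441, edgeR unadjusted p = 0.00622, adjusted p = 0.999), and Klf5 KD was lower than Nr5a2 KD by -2.01 (standard error 0.492, edgeR adjusted p = 0.0165). Without control replicate 2, which leaves the control with 3 counts, the value was 4.58 (edgeR adjusted p = 0.0133). The call in Nr5a2 KD was lost without control replicate 1 (1.91) and without Nr5a2 KD replicate 1 (2.69, edgeR adjusted p = 0.0537). It was also lost when the mitochondrial share entered as a covariate (2.07, edgeR adjusted p = 0.103) and with a block for the replicate number.

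Per kilobase of exon, the ratio of Krt8 to Krt18 was 1.19, 0.875 and 0.62 in the 3 Nr5a2 KD libraries and 0.687, 3.01, 0.751 and 1.53 in dKD. It could be formed in 1 control library (0.701) and in 1 Klf5 KD library (1.74), since it was left out wherever a gene had under 10 counts, so no comparison with control was made. Between dKD and Nr5a2 KD the mean log2 ratio differed by 0.52 (SD 0.997, n = 4, and 0.47, n = 3; exact two-sided permutation test, p = 0.457, where 0.0286 is the smallest possible), and by 0.10 without dKD replicate 2. That test was added after the values were seen.

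Id2 encodes an inhibitor of basic helix-loop-helix factors that is itself without a DNA-binding domain, and its gene spans 25093799 to 25097140 of chromosome 12. It was at 0.454 and 1.47 CPM in control, 19.4, 14.2 and 21.6 CPM in Nr5a2 KD, 1.44, 0.589 and 2.34 CPM in Klf5 KD and 5.55, 33.2, 6.48 and 14.7 CPM in dKD. All 7 libraries that received Nr5a2 siRNA lay above all 5 that did not. The 4 dKD libraries were far apart, with replicate 2 at the top, and the dKD range held that of Nr5a2 KD.

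Against control, Id2 rose by 4.23 on the log2 scale in Nr5a2 KD (standard error 0.508, edgeR adjusted p = 0.000775) and 3.93 in dKD (standard error 0.86, edgeR adjusted p = 0.0175). It also differed between knockdowns: dKD was higher than Klf5 KD by 3.39 (standard error 0.676, edgeR adjusted p = 0.00601), and Klf5 KD lower than Nr5a2 KD by -3.69 (standard error 0.463, edgeR adjusted p = 0.00038). From Nr5a2 KD to dKD the difference was -0.30 (standard error 0.504, edgeR adjusted p = 0.999). Id2 in Nr5a2 KD was called in each of 8 other settings and with each of 5 libraries left out, at 3.64 without control replicate 1 and 5.32 without control replicate 2. In dKD it was not called without control replicate 1 (3.35, edgeR adjusted p = 0.162) or control replicate 2 (5.03, edgeR adjusted p = 0.0984), where 1 control library is assumed to vary like the dKD libraries. Without dKD replicate 2 it was at 3.21 against control (edgeR adjusted p = 0.0174) and 2.64 against Klf5 KD (edgeR adjusted p = 0.0132).

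Hand1, a basic helix-loop-helix factor needed for trophoblast giant cells, is found on chromosome 11 (57828705 to 57832818). Its level was 43.3 and 49.1 CPM in control, 5.18, 9.76 and 5.64 CPM in Nr5a2 KD, 24.1, 19.1 and 23.9 CPM in Klf5 KD and 9.71, 10.3, 0.236 and 5.42 CPM in dKD. Every knockdown library lay below both controls, and those with Nr5a2 siRNA lay below all of Klf5 KD. In dKD replicate 3 only 2 counts were left, where the controls held 286 and 367.

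In Nr5a2 KD, Hand1 fell by 2.73 on the log2 scale (standard error 0.316, edgeR adjusted p = 0.000627), a call kept in each of 8 other settings and with each of 5 libraries left out. In dKD it fell by 2.83 (standard error 0.662, edgeR adjusted p = 0.0239). In Klf5 KD the log2 fold change was -1.04 (standard error 0.282, edgeR unadjusted p = 0.00283, adjusted p = 0.379), at 48.4% of the control mean. The difference between the single knockdowns passed: Klf5 KD was above Nr5a2 KD by 1.69 (standard error 0.342, edgeR adjusted p = 0.00579). Between dKD and Nr5a2 KD it was -0.10 (standard error 0.696, edgeR adjusted p = 0.999), and this sign turned without Nr5a2 KD replicate 2 (0.23) or dKD replicate 3 (0.30). From Klf5 KD to dKD it was -1.79 (standard error 0.62, edgeR adjusted p = 0.0788), though no dKD library reached those of Klf5 KD. That difference was called with no filter (-1.83, edgeR adjusted p = 8.144e-06), with all 12 libraries in 1 fit (-1.81, edgeR adjusted p = 0.0359), with the mitochondrial share as a covariate (-2.20, edgeR adjusted p = 0.0238) and without dKD replicate 3 (-1.38, edgeR adjusted p = 0.0209). The unfiltered fit held 28362 genes in place of 12904. Its fold change was close to the main one, so its far smaller p belongs to the fit, and why was not tested.

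The call of Hand1 in dKD was lost with DESeq2 (-2.83, adjusted p = 0.113), without control replicate 1 (-2.92, edgeR adjusted p = 0.112), without control replicate 2 (-2.72, edgeR adjusted p = 0.151) and without dKD replicate 4 (-2.76, edgeR adjusted p = 0.0618). The dKD libraries with the low mitochondrial share, replicates 3 and 4, were those with the lower Hand1. In Klf5 KD the library with the lowest share, replicate 1, had the highest Hand1 of its group, and in Nr5a2 KD replicate 3 lay between the other two. With that share as a covariate the log2 fold change was -2.14 (edgeR adjusted p = 0.065). Whether the share plays a part in the level of Hand1 was not tested.

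Tfap2c encodes AP-2γ, a factor of the trophoblast lineage, and maps to chromosome 2 (172549593 to 172558622). It was measured at 64.8 and 59.2 CPM in control, 26.5, 37 and 28.4 CPM in Nr5a2 KD, 59.1, 92 and 61.8 CPM in Klf5 KD and 41.9, 37.6, 33.8 and 44.1 CPM in dKD. Each of the 7 libraries with Nr5a2 siRNA lay below each of the other 5. In Nr5a2 KD the log2 fold change was -0.99 (standard error 0.24, edgeR adjusted p = 0.0246), past the threshold for p but just short of 2-fold. It was called with DESeq2 (-1.0, adjusted p = 0.00614), with the size factors of DESeq2 in edgeR and without Nr5a2 KD replicate 2 (-1.14, edgeR adjusted p = 0.0209). The adjusted p was 0.206 without control replicate 1, 0.148 without control replicate 2 and 0.0835 without Nr5a2 KD replicate 1 (edgeR). With libraries scaled to the ERCC spike-in counts, where the median of all genes was 0.82, the value was -0.24 (edgeR adjusted p = 0.718).

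In dKD the log2 fold change of Tfap2c was -0.62 (standard error 0.21, edgeR adjusted p = 0.0957), and it was 0.18 under that ERCC scaling, where the median of all genes was 0.84. Klf5 KD was higher than Nr5a2 KD by 1.2 (standard error 0.278, edgeR adjusted p = 0.0127). From Klf5 KD to dKD it was -0.84 (standard error 0.236, edgeR adjusted p = 0.0331), again short of 2-fold. Klf5 KD differed from control by 0.20 (standard error 0.291, edgeR adjusted p = 0.883), a value of -0.02 without Klf5 KD replicate 2.

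Gata3, a zinc finger factor that acts beside Cdx2 in outer cells, maps to chromosome 2 (9857078 to 9890034). Its libraries were at 2.42 and 6.83 CPM in control, 9.41, 9.60 and 9.59 CPM in Nr5a2 KD, 5.88, 5.13 and 10.6 CPM in Klf5 KD and 8.14, 16.6, 4.83 and 6.46 CPM in dKD. The Nr5a2 KD libraries were nearly equal and above both controls, and the other groups overlapped control. Against control, Nr5a2 KD differed by 1.05 on the log2 scale (standard error 0.461, edgeR adjusted p = 0.185), 0.62 in Klf5 KD (standard error 0.52, edgeR adjusted p = 0.755) and 0.97 in dKD (standard error 0.558, edgeR adjusted p = 0.314). The same 2 control libraries, which differed from each other, stand in all 3 comparisons. With control replicate 1 left out, Nr5a2 KD was at 0.49 and dKD at 0.41. With control replicate 2 left out, they were at 2.0 and 1.92, and neither was called. Klf5 KD was at 0.09 and 1.58 in the same order, and at 0.27 without Klf5 KD replicate 3. ERCC scaling called Gata3 higher in dKD (1.70, edgeR adjusted p = 0.0387). Its exons overlap those of Gm13256 and 9230102O04Rik, with which reads were split.

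The other 4 regulators were near the limit of detection. Cdx2, the caudal homeobox factor that marks the trophectoderm (chromosome 5, 147300805 to 147307270), had 2 and 7 counts in control, 0, 3 and 0 in Nr5a2 KD, 0, 0 and 1 in Klf5 KD and 0 in each of the 4 dKD libraries. In CPM this was 0.303 and 0.937 in control. The dKD and Klf5 KD libraries lay below both controls, and Nr5a2 KD replicate 2 lay between them. Cdx2 had too few counts to be tested with the other genes.

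Pooled over libraries, the 95% exact interval of the ratio of control to dKD began at 4.48 for Cdx2. The ratio of control to Nr5a2 KD was 5.06 (95% exact interval 1.26 to 29.1) and that of control to Klf5 KD was 16.9 (2.34 to 741). These intervals cover counting error only, since reads were amplified without molecular identifiers, and they rest on 9 counts in control, 7 of them in replicate 2. Without control replicate 2 the intervals began at 0.909 for dKD, 0.2 for Nr5a2 KD and 0.417 for Klf5 KD, so all 3 then held a ratio of 1. Without control replicate 1 they began at 6.17, 1.69 and 3.19. With no filter on low counts, the edgeR adjusted p of Cdx2 was 0.661 in Nr5a2 KD, 0.775 in Klf5 KD and 0.121 in dKD.

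Tfap2a, the AP-2α gene (chromosome 13, 40715302 to 40738376), had 1 and 0 counts in control, 1, 14.5 and 1 in Nr5a2 KD, 1.5, 0.5 and 2 in Klf5 KD and 19.5, 10.5, 7 and 1 in dKD. Its counts were high in 1 Nr5a2 KD library and in 3 of 4 dKD libraries, and its dKD range reached that of control. It entered the test against control only through dKD, with a log2 fold change of 3.83 (standard error 1.55, edgeR adjusted p = 0.15). This value was 6.27 without control replicate 1 and 2.91 without control replicate 2, not called in either, and it was called with ERCC scaling (4.38, edgeR adjusted p = 0.049). Values that are not whole come from reads split with overlapping genes such as Gm47061, which share up to 380 exon bases with Tfap2a.

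Eomes, a T-box factor of the trophoblast stem cell state (chromosome 9, 118478212 to 118486132), had 0.5 and 0 counts in control, 2, 2 and 3 in Nr5a2 KD, 3, 0 and 0.5 in Klf5 KD and 16, 0, 1 and 6 in dKD. Replicates 1 and 4 of dKD carried most of its reads, and replicate 2 had none. Gata2, a GATA factor of trophoblast cells (chromosome 6, 88193891 to 88207032), had no count in the 5 control and Nr5a2 KD libraries, 1 in Klf5 KD and 3 in dKD. Both genes were under the filter on low counts. With no filter, Eomes in dKD differed from control by 5.49 on the log2 scale (standard error 2.19, edgeR unadjusted p = 0.0121, adjusted p = 0.12) and in Nr5a2 KD, where all 3 libraries lay above both controls, by 4.25 (standard error 2.92, edgeR adjusted p = 0.542). Pooled over libraries, Eomes had 23 counts in dKD, 16 of them in replicate 1, and 7 in Nr5a2 KD, against 0 in control after rounding. Gata2 in dKD was at 2.74 with no filter (standard error 2.69, edgeR adjusted p = 0.644).

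Counted over the list, 6 of the 10 members passed the filter on low counts in Nr5a2 KD against control (at least about 10 counts in as many libraries as the smaller group holds). Of the 6, 1 was called lower (Hand1) and 3 higher (Krt8, Krt18 and Id2), against 586 and 457 of all 13262 genes. In Klf5 KD, where edgeR called 0 of 12838 genes, 1088 genes had an unadjusted p under 0.05, Hand1 alone among the members, and DESeq2 called 42 genes lower and 8 higher, with no member. ERCC scaling called 4 lower and 21 higher (edgeR), again with no member. In dKD 1 of 7 was lower and 1 higher, against 529 and 464 of 13724 genes.

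The median log2 fold change was 1.63 over the 6 members tested in Nr5a2 KD and 0.04 over all genes, 0.38 and 0.00 in Klf5 KD, and 1.08 and 0.05 in dKD. Tfap2a passed the filter only through dKD. Id2 and Krt18 had at most 22 counts in a control library and 3 each in control replicate 1, so they passed only through the knockdown compared. These medians and the counts of calls above are thus a description only. The 3 comparisons share the 2 control libraries and are not independent.

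**Figure D2:**
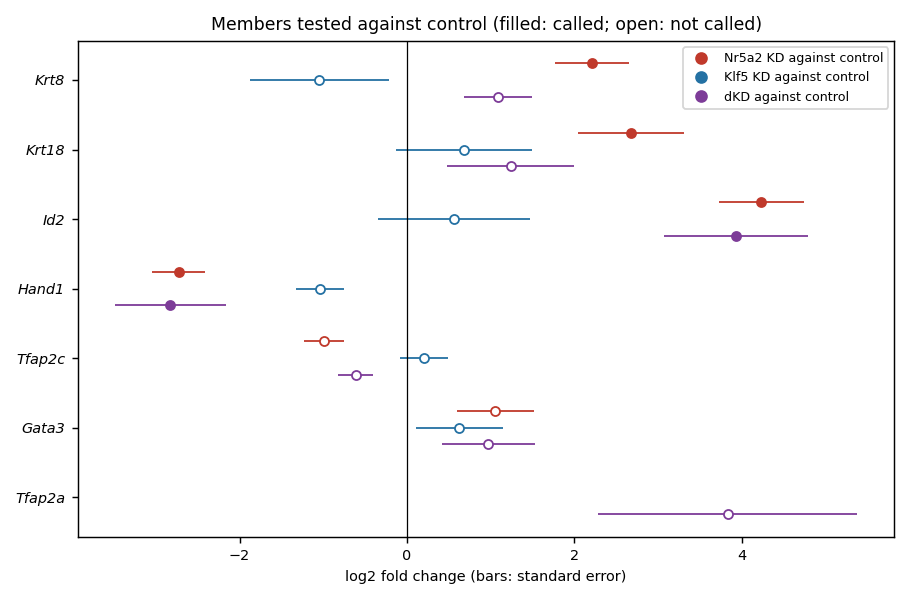
Log2 fold change against control (horizontal axis, bars of 1 standard error) of the 7 members tested in at least 1 comparison; filled points were called. In Nr5a2 KD the values run from -2.73 for Hand1 to 4.23 for Id2.

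Between the knockdowns, 7 members were tested in dKD against Nr5a2 KD and none was called, with 0% of 13017 genes lower and 0% higher by edgeR. The smallest edgeR adjusted p was 0.999, so Klf5 was not called either, though its dKD libraries all lay below those of Nr5a2 KD. An unadjusted p under 0.05 was reached by 447 genes, Krt8 and Krt18 among them, and DESeq2 called 4 lower and 0 higher. In dKD against Klf5 KD 2 of 6 were higher (Krt8 and Id2) and 0 lower, where 5.38% of 12904 genes were higher and 5.41% lower. For Krt8 this was 2.10 (standard error 0.605, edgeR adjusted p = 0.0367), and it was lost with 6 of the 7 libraries left out in turn, with adjusted p up to 0.125, and was 3.40 without Klf5 KD replicate 2. In Klf5 KD against Nr5a2 KD 5 of 6 were called: 3 lower (Krt8, Krt18 and Id2) and 2 higher (Tfap2c and Hand1), where 5.6% of 12668 genes were lower and 5.83% higher. Gata3 was not called (-0.42, standard error 0.373, edgeR adjusted p = 0.536). Id2 and Krt8 were called in each of 8 other settings and with each of 6 libraries left out, though Krt8 was at -4.53 without Klf5 KD replicate 2. Krt18 lost the call without Nr5a2 KD replicate 3 (-1.74, edgeR adjusted p = 0.0609), Klf5 KD replicate 1 (-1.87, edgeR adjusted p = 0.0554) or Klf5 KD replicate 2 (-1.65, edgeR adjusted p = 0.0703). Tfap2c lost it without Nr5a2 KD replicate 1 (1.10, edgeR adjusted p = 0.071) or Klf5 KD replicate 2 (1.0, edgeR adjusted p = 0.0663) and with ERCC scaling (1.13, edgeR adjusted p = 0.232). Hand1 lost it with ERCC scaling (1.62, edgeR adjusted p = 0.0535) and with all 12 libraries in 1 fit (1.71, edgeR adjusted p = 0.0695).

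To compare levels between genes, counts were scaled per exon length to TPM (transcript share of a library). In control, Hand1 (36.7 ± 3.98 TPM, SD, n = 2) and Tfap2c (26.7 ± 1.2) were far above the rest and did not overlap each other. Krt8 (2.30), Krt18 (1.89) and Gata3 (1.85) followed with overlapping ranges, then Id2 (0.63) and Cdx2 (0.437). In Nr5a2 KD the order was Tfap2c (15 ± 3.18 TPM, SD, n = 3), Krt18 (14.1 ± 6.58), Id2 (13.7 ± 4.46) and Krt8 (11.8 ± 3.77), whose ranges all overlapped. Hand1, the first in control, was the fifth there at 6.15 ± 2.16, before Gata3 (4.32 ± 0.694), and its range overlapped those of Krt8 and Gata3.

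In Klf5 KD, Tfap2c (31.4 ± 10.3 TPM, SD, n = 3) came before Hand1 (17.9 ± 1.34), with ranges apart, and Krt18 (3.03), Gata3 (2.85), Krt8 (1.17) and Id2 (0.933) followed, each overlapping the next. In dKD Tfap2c led at 20.5 ± 3.4 TPM (SD, n = 4), and the wide range of Id2 (11.7 ± 9.44) overlapped those of the other 5 abundant members. Hand1 (5.94), Krt8 (5.79), Krt18 (5.26) and Gata3 (4.23) also overlapped each other.

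**Figure D3:**
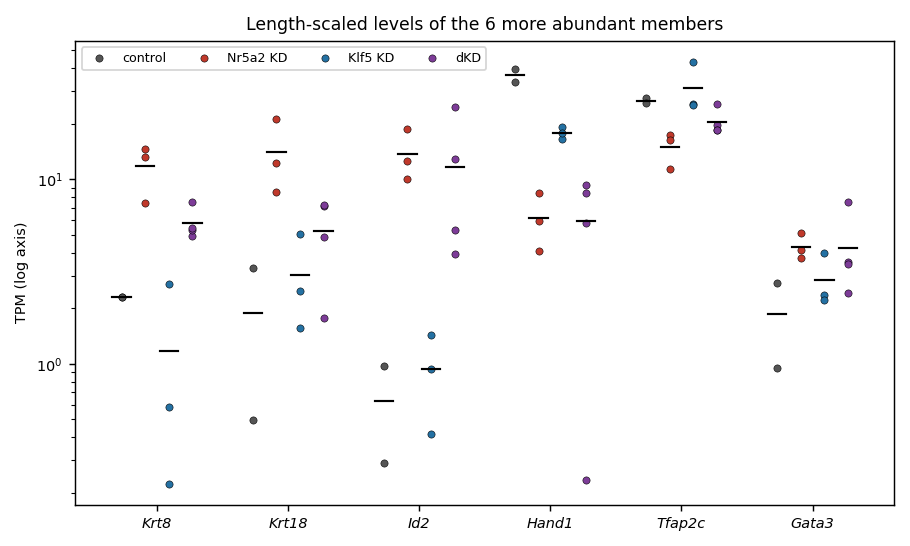
Level in TPM (logarithmic vertical axis) of the 6 more abundant members in the 12 libraries, with a line at each group mean. Hand1 and Tfap2c stand above the other members in control and Klf5 KD, while in Nr5a2 KD the means of Tfap2c, Krt18, Id2 and Krt8 lie between 11.8 and 15 TPM.

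Other genes of the trophectoderm were read from a list of 25, of which 19 passed the filter in Nr5a2 KD and in dKD. In Nr5a2 KD 4 were lower and 2 higher, and in dKD 3 were lower and 2 higher, with a median log2 fold change of -0.06 and -0.15. Over all genes tested, 4.42% were lower and 3.45% higher in Nr5a2 KD, and 3.85% and 3.38% in dKD. Among the lower, Ovol1, a zinc finger transcriptional repressor of epithelia and trophoblast, had 41 and 15 counts in control and 0 to 3 counts in the 7 libraries with Nr5a2 siRNA. Fitted against control it was at -4.16 on the log2 scale for Nr5a2 KD (standard error 0.962, edgeR adjusted p = 0.02) and -4.30 for dKD (standard error 0.794, edgeR adjusted p = 0.00873). The Klf5 KD libraries, at 4.03 to 4.80 CPM, lay within the control range of 2.01 to 6.2 CPM.

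Rhox9, a reproductive homeobox gene of the placenta, fell by 2.93 in Nr5a2 KD and 3.57 in dKD on the log2 scale (edgeR adjusted p = 0.0129 and 0.0153). Its level ranged from 1.90 to 38.2 CPM within Klf5 KD. Cldn4, a claudin of tight junctions, fell by 1.14 and 1.81 (edgeR adjusted p = 0.0454 and 0.0287), and Tead4 by 1.01 in Nr5a2 KD (edgeR adjusted p = 0.0393). Of the higher, Plet1, a surface protein of trophoblast progenitors, was at 1.54 and 3.71 CPM in control and 9.41 to 21.2 CPM in Nr5a2 KD (log2 fold change 2.42, edgeR adjusted p = 0.0151). Lgals3, which encodes galectin-3, was at 5.62 and 6.35 CPM and at 15 to 24.6 CPM (1.70, edgeR adjusted p = 0.0123).

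Neither Plet1 nor Lgals3 was called in dKD against control, and both were lower in Klf5 KD than in Nr5a2 KD, by -3.60 and -2.61 (edgeR adjusted p = 0.00168 and 0.00117). Grhl1, a grainyhead factor of epithelia, was called in dKD (4.14, edgeR adjusted p = 0.0107), with 0 and 4 counts in control and 34 to 53 in dKD. Lrp2, the endocytic receptor megalin, was called there as well (1.90, edgeR adjusted p = 0.0399), with 1.34 and 2.72 CPM in control and 5.09 to 10.7 CPM in dKD.

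**Figure D4:**
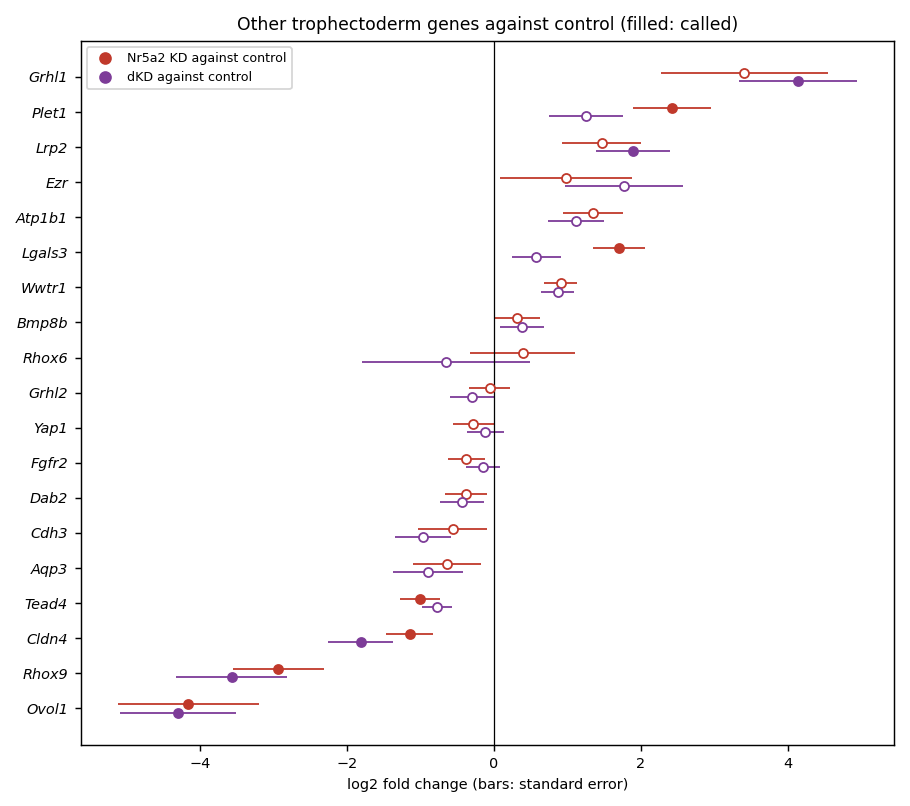
Log2 fold change against control (horizontal axis, bars of 1 standard error) of the 19 other trophectoderm genes tested in Nr5a2 KD and in dKD; filled points were called. Ovol1 and Rhox9 lie lowest and Grhl1 highest in both.

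Of 17 other keratin and desmosome genes, 4 could be tested against control (Krt10, Dsp, Pkp2 and Jup) in Nr5a2 KD and in dKD, and none was called by edgeR, with none at an unadjusted p under 0.05. Krt5, Krt20 and Krt80 were at 0 in all 12 libraries. Of 15 paralogs of the members, 6 were tested in Nr5a2 KD and 7 in dKD. In each, 1 was called lower, where 4.42% and 3.85% of all genes were lower. This was Gata1, a GATA factor best known from red blood cells. It had a mean of 38.2 CPM (SD 4.41, n = 2) in the controls, 12 CPM (SD 1.81, n = 3) in Nr5a2 KD, 33.6 CPM (SD 7.71, n = 3) in Klf5 KD and 9.61 CPM (SD 3.72, n = 4) in dKD. Its log2 fold change was -1.64 in Nr5a2 KD and -1.96 in dKD (edgeR adjusted p = 0.00369 and 0.0066). Among the 8 cleavage-stage markers, all tested, Khdc3, of the subcortical maternal complex, was called lower in Nr5a2 KD and dKD (-2.55 and -3.24) and Nlrp5 in dKD (-1.17). Of 9 2-cell stage genes tested in dKD, Zfp352 was called higher (2.81, edgeR adjusted p = 0.0156), where 3.38% of all genes were higher. Of 10 oocyte transcripts tested none was called against control by edgeR.

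Patterns like those of the members were sought among 8455 genes, by Pearson's r of log2 CPM over the 12 libraries. These values describe libraries that share groups, pooled embryos and depth. Id2 was most like Zfp623 (0.956), Bloc1s3 (0.949) and Ifitm1 (0.948), and Krt8 most like Arhgef19 (0.937), Tollip (0.935) and Cnot6l (0.934). For Krt18 these were Ifitm3 (0.868), Scd2 (0.865) and Pdlim4 (0.814), and for Gata3 Osgepl1 (0.86), Gpr143 (0.86) and Dand5 (0.843). Hand1 was most like D330023K18Rik (0.942), Tex264 (0.928) and 2900060B14Rik (0.92), and Tfap2c most like Setdb2 (0.969), Fbxo31 (0.964) and G3bp2 (0.964). Among the members, r was highest for Gata3 with Id2 (0.725), and it was 0.679 for Id2 with Krt8, 0.624 for Id2 with Krt18 and 0.444 for Krt8 with Krt18. It was -0.881 for Id2, -0.735 for Krt18 and -0.733 for Krt8 with Tfap2c, and 0.665 for Hand1 with Tfap2c.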

How the data were processed

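Per the file headers and the methods, the authors trimmed the reads (TrimGalore 0.6.2), mapped them with STAR to GRCm38 and counted pairs over exons with featureCounts 2.0.1, without strand, splitting a pair between overlapping genes. The deposited values are therefore estimated counts, which were rounded here before testing. The header names a filtered alignment, whose filter is not given in the sources used here, and while the methods name a NovaSeq for these libraries, the labels also name an AVITI, with no sequencer given per library. Members and lists were chosen with earlier results of these data known. The genes named are the members, the targeted genes, up to 4 listed genes called per direction against control, and the 3 genes most like each member with a mean of at least 5 CPM.

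Groups were compared in pairs with edgeR 4.0.16 (R 4.3.3), TMM factors, filterByExpr (minimum count 10, minimum total 15) and the quasi-likelihood test, with Benjamini-Hochberg adjustment over all genes tested. The fits were tested on simulated data. CPM used TMM factors over 12 libraries, and log2 CPM a prior count of 2. Alternatives were DESeq2 1.42.0, other scalings, no filter, a single fit of all libraries, a block for the replicate number, the mitochondrial share as covariate, no fold minimum, and each library left out. Libraries of dKD and Nr5a2 KD with the same number deviated together (correlations of 0.13, 0.221 and 0.254), and in no other comparison did every such pair do so. Some libraries of unlike number did so as well, with the highest value, 0.264, for dKD replicate 4 with Nr5a2 KD replicate 3. A pairing by number is thus not established.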

Additional observations from a re-analysis of the deposited data

How the results depend on the processing

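Scaling, filtering, tool and libraries left out changed few directions. Of 529 alternative values, 479 kept their direction and side of the threshold, 9 reversed, 30 lost a call and 11 gained one. Most main values were not called and had no call to lose, so the 479 do not measure how stable the calls are. The number of members lower in Nr5a2 KD was 2 in place of 1 with DESeq2, with its size factors and with no fold-change minimum, and 1 to 2 with a library left out, while the number higher was 1 to 3. In dKD against control, 0 were lower with DESeq2 or the mitochondrial covariate, 4 higher with ERCC counts, and 0 to 1 in either direction with a library left out. In dKD against Klf5 KD, 1 was lower with no fold-change minimum (Tfap2c), and with no filter, all 12 libraries in one fit or the mitochondrial covariate (Hand1), 1 was higher with ERCC counts, and with a library left out 0 to 1 were lower and 1 to 2 higher. In Klf5 KD against Nr5a2 KD, 0 were higher with ERCC counts, 1 with all 12 libraries in one fit, and 1 to 2 with a library left out, which left 2 to 3 lower. The cause was not tested.

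With the replicate block, Krt18 in Nr5a2 KD was at 2.53 (edgeR adjusted p = 0.055), 2 members were higher in dKD against control (Gata3 at 1.5 and Id2), and 0 were higher in dKD against Klf5 KD, where Id2 was at 2.88 (edgeR adjusted p = 0.066) and Krt8 had an adjusted p of 0.0808. The replicate block changed no call of a member in dKD against Nr5a2 KD, the only comparison in which every same-number pair deviated together. ERCC scaling moved the median over all genes (log2) to 0.82 in Nr5a2 KD, 0.66 in Klf5 KD and 0.84 in dKD. Under it 761 of 13262 genes were called higher and 90 lower in Nr5a2 KD, and 2838 of 13724 higher and 178 lower in dKD, where Gata3, Id2, Krt8 and Tfap2a were higher. In Klf5 KD against control, where edgeR called 0 genes, it called 146 lower and 107 higher with the replicate block and 69 and 45 with no filter, with no member among them. Total counts moved it to 0.15, -0.04 and 0.20.

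Reversed values were small. In Klf5 KD, with a library left out, Krt18 ran from -0.0759 (without control replicate 1) to 2.58, Id2 from -0.00439 (without control replicate 1) to 1.66, and Tfap2c from -0.0203 (without Klf5 KD replicate 2) to 0.30. In dKD against control, Tfap2c was at 0.18 with ERCC counts. In dKD against Nr5a2 KD, Hand1 ran from -0.42 to 0.30 (0.23 without Nr5a2 KD replicate 2, 0.30 without dKD replicate 3) and Gata3 from -0.55 to 0.11 (0.11 without dKD replicate 3, 0.04 without dKD replicate 4). Against Klf5 KD, Gata3 in dKD ran from -0.14 (without dKD replicate 2) to 0.66. The ratios of 2 members could not be formed in both control libraries, so no comparison with control and no alternative of it gave a value. The log2 ratio of Krt8 to Krt18 in dKD against Nr5a2 KD was 0.52, ran from 0.10 to 0.81 with a library left out, and was 0.42 with the replicate block (higher in dKD in 2 of 3 pairs, exact sign-flip test, p = 0.75, where 0.25 is the smallest possible). With 2 control libraries and under 25 counts of Id2 or Krt18 in each, counts limit these genes in the comparisons with control.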
